A study of Caenorhabditis elegans with 2 samples.

Results

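Regions at autosomal tRNA genes are described here from a chromatin immunoprecipitation and sequencing (ChIP-seq) experiment on NHR-28, a nuclear hormone receptor of the nematode Caenorhabditis elegans. The members are the regions of the authors' pooled list whose summit, the position of highest signal, lay within 500 bp of a tRNA gene on chromosomes I to V. There were 217 of them among 24834 autosomal regions and 30000 regions in all. The pooled list is labelled as holding peaks and background, so a region in it need not be a site of binding. Of its autosomal regions, 13975 had their summit in neither replicate's own list. The embryos were of mixed stages and of both sexes, from strain OP317, whose genotype is unc-119(ed3) III; wgIs317, the second being an integrated transgene with an eGFP tag on nhr-28. Both libraries, biological replicates 1 and 2, came from whole organisms of this 1 group, with fragments of 150 to 350 bp, so the allele and the transgene were shared by every sample. No untagged strain and no other stage was analysed here. The tagged protein came from a transgene, and whole embryos mix all their cell types, so the regions cannot be assigned to one of them.

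A tRNA carries an amino acid to the ribosome. Its gene is transcribed by RNA polymerase III from a promoter inside the gene, which consists of an A box near the 5′ end and a B box in the later part. The factor TFIIIC binds both boxes and places TFIIIB just upstream of the gene, TFIIIB recruits the polymerase, and transcription stops at a run of T just past the gene. Nuclear hormone receptors are zinc finger transcription factors, and AGGTCA is the classical core of the sites that many of them bind.

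Sequences of 8 genes at IDR peaks show where the letters of the internal promoter lie in them. They are written 5′ to 3′ on the strand of the gene, from the RefSeq copy of WBcel235, which is the build ce11. Capitals mark the A box core GCNNAGNNG and, further on, the B box core GTTCGANNC, where the gene holds these letters. Their names are followed by the amino acid and the position.
ZK622.t1, alanine, chrII:5292332-5292403, plus strand: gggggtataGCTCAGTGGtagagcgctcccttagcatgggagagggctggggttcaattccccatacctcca
ZC455.t1, serine, chrV:12780386-12780467, minus strand: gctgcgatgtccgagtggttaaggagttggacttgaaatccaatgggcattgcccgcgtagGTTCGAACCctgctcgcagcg
F57F5.t1, isoleucine, chrV:12002176-12002260, plus strand: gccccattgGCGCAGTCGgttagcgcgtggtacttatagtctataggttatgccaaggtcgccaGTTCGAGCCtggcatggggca
K04C2.t3, lysine, chrIII:6887728-6887800, minus strand: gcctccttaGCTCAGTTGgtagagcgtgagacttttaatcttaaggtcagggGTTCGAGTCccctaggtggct
C04A2.t1, leucine, chrII:6853204-6853285, plus strand: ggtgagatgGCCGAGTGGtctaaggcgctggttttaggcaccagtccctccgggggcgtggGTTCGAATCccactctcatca
C38C6.t1, leucine, chrII:14635335-14635416, minus strand: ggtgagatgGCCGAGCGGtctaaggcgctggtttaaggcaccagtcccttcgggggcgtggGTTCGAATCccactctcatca
C05G6.t1, valine, chrIV:620482-620554, plus strand: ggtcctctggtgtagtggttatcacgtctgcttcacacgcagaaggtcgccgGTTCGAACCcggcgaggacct
W09G10.t1, histidine, chrII:3521487-3521558, minus strand: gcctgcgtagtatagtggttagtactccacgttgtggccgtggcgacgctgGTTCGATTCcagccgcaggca
All 8 genes had a peak in the list of regions that the authors kept after their test of reproducibility, the irreproducible discovery rate (IDR). The A box core is found in 5 of these sequences, the B box core in 7 and both in 4. The genes of leucine differed at 3 of their 82 positions.

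The upstream flanks of the tRNA-Ala gene ZK622.t1 and of copies with the same gene sequence are shown because these copies differ in their surroundings and in their regions. The 50 bases before each gene are written on its strand, and capitals mark AGGTCA or its complement TGACCT. The flank of the tRNA-Asp gene F28F8.t3 is added as a further one that holds these letters.
ZK622.t1, region at the gene, chrII:5292282-5292331, plus strand: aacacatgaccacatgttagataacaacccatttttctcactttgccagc
F15B9.t1, region at the gene, chrV:13003581-13003630, minus strand: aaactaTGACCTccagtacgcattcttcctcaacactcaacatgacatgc
Y65A5A.t2, region at the gene, chrIV:16399134-16399183, plus strand: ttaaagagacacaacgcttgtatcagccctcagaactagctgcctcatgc
M03A1.t1, no summit within 50 bp, chrII:4565339-4565388, plus strand: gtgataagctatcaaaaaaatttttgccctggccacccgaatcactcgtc
F49C5.t2, no summit within 500 bp, chrII:12542584-12542633, plus strand: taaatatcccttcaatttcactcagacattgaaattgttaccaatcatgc
F28F8.t3, region at the gene, chrV:15551871-15551920, minus strand: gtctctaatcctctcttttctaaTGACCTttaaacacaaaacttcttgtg

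The regions at autosomal tRNA genes were stronger and more often found in both replicates than most autosomal regions. Their signal value, the authors' measure of a region's strength against the control, had a median of 23.3 (quartiles 16.6 and 35.6, highest 100.7), against 16.7 over the other 24617 autosomal regions (quartiles 14.5 and 20.2). Of the 217 members, 21 (9.68%, 95% Wilson interval 6.42 to 14.3) were in the IDR list, which held 0.652% of all autosomal regions. The summit lay inside a region of both replicates for 64 members (29.5%, 23.8 to 35.9), against 4.54% of all autosomal regions. A further 74 members were found in replicate 1 only, 23 in replicate 2 only and 56 in neither replicate list. Over all 24834 autosomal regions these counts were 7581, 2150 and 13975. Intervals cover counting error only, and since regions of the same 2 libraries are not replicates of a condition, differences between classes of regions were not tested.

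Members were found over the whole range of the pooled list and were most frequent near its top. The best of them ranked at 25 among the autosomal regions. Members made up 11 of the 100 strongest autosomal regions and 48 of the 500 strongest, whereas they were 0.874% of all autosomal regions. The top decile of the autosomal regions by signal held 100 members (46.1%), and the bottom decile held 10 (4.61%).

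Regions at tRNA genes of chromosome X, placed by the same rule, had a similar median signal, a higher upper quartile and a larger IDR share. The autosomal members had the median of 23.3 given above, against 24.4 for the 171 regions at X-linked tRNA genes and 24.1 for 131 autosomal regions within 200 bp of a gene for a small nucleolar RNA (snoRNA) and with no tRNA gene. The upper quartiles were 35.6, 46.3 and 57.9 in this order, and the highest values 100.7, 127.6 and 211.5. In the IDR list were 9.68% of the autosomal members, against 18.7% (13.6 to 25.2) of the X-linked ones and 25.2% (18.5 to 33.3) of those at snoRNA genes. The summit lay in both replicates for 29.5% of the autosomal members, against 40.4% (33.3 to 47.8) and 34.4% (26.8 to 42.8) in these classes. The intervals of the IDR share for autosomal members and for X-linked regions overlapped slightly.

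**Figure D1:**
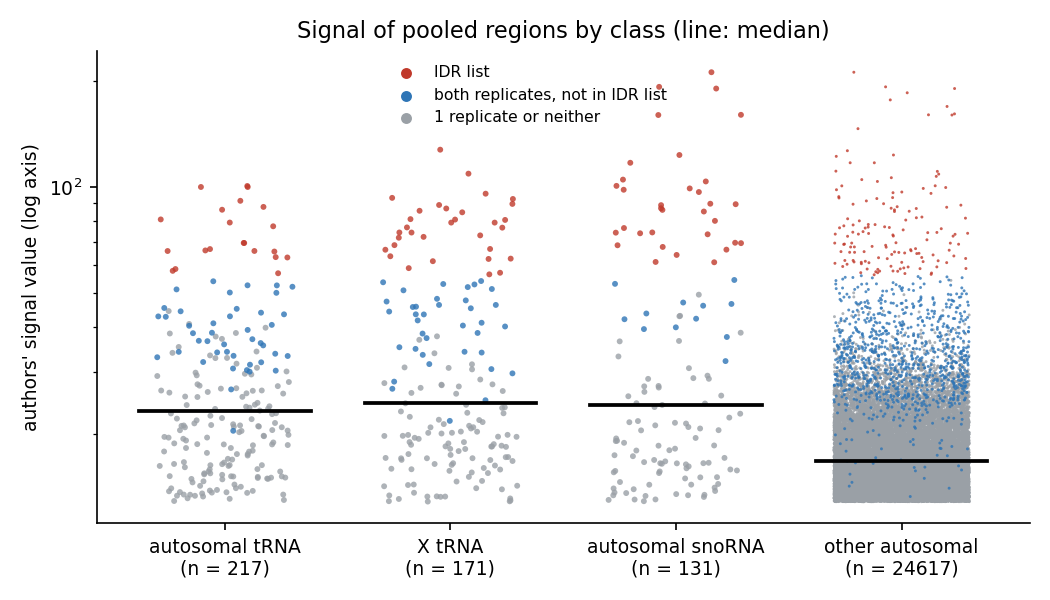
Signal value of every pooled region (log axis) at autosomal tRNA genes, X-linked tRNA genes, autosomal snoRNA genes and elsewhere on the autosomes; each point is a region, coloured by its support, and the black line is the median of the class. The medians of the first 3 classes are 23.3, 24.4 and 24.1, and that of the other autosomal regions is 16.7.

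Support differed with the distance from the summit to the tRNA gene. Of the members, 129 had their summit inside a tRNA gene or within 50 bp of it, and 88 lay 51 to 500 bp away. The limit of 50 bp was chosen after the values were seen. The contrast between near and distant members is thus a description, and its intervals do not allow for that choice. The near ones had a median signal of 30.3, against 18.7 for the distant ones. All 21 IDR members, counted by an equal summit, were among the near ones (16.3% of these, 10.9 to 23.6). Of the 88 distant ones 0 were, and the interval reached up to 4.18%. Counted by any overlap with an IDR peak, the share of all members was 11.5%. The distant regions at ZK622.t1 (101 bp), C05G6.t1 (117 bp), F33G12.t1 (229 bp) and T23F1.t2 (96 bp) overlap a near member in the IDR list. Both replicates held 57 of the near members (44.2%, 35.9 to 52.8) and 7 of the distant ones (7.95%, 3.91 to 15.5). The distant members thus had values close to those of the other autosomal regions. On X, 31 of the 111 regions within 50 bp of a tRNA gene (27.9%) were in the IDR list and 63 (56.8%) in both replicates, with a median signal of 35.2.

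Support in the lists was lower beyond 50 bp, the limit chosen after the values were seen. The median signal fell step by step with distance up to 300 bp. The 62 summits inside a gene had a median signal of 31.2, with 10 in the IDR list and 27 in both replicates. The 67 summits at 1 to 50 bp had a median of 26.5, with 11 in the IDR list and 30 in both replicates. At 51 to 100 bp 2 of 22 members were in both replicates (median signal 21.6), and at 101 to 200 bp 4 of 25 (19.4). Of the 17 members at 201 to 300 bp (median 16.1) 1 was in both replicates, and of the 12 at 301 to 400 bp and the 12 at 401 to 500 bp none was.

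Regions on either side of the limit of 500 bp had similar values. The members just inside it lay 473 bp from Y38E10A.t1 (signal 17.3), 486 bp from F29C4.t1 (21.996) and 494 bp from C52E12.t3 (14.9). The regions just outside lay 508 bp from T13B5.t2 (20.6), 512 bp from T05A8.t2 (20.4) and 514 bp from Y39B6A.t10 (17.0). None of these 6 regions was in both replicates. The 18 autosomal regions at 501 to 600 bp had a median of 16.6, with 0 in the IDR list.

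**Figure D2:**
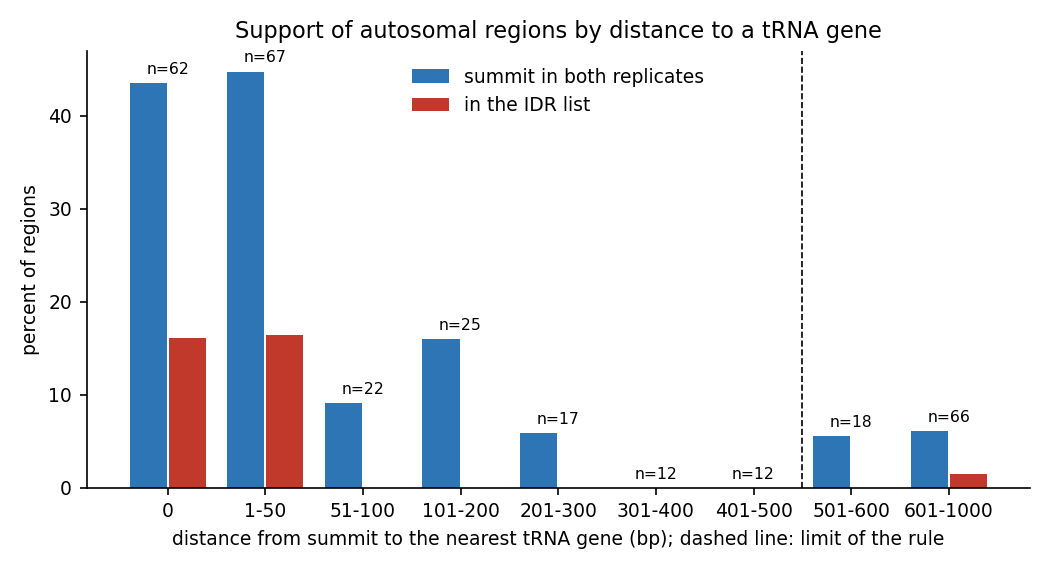
Percent of autosomal regions with the summit in both replicates (blue) and in the IDR list (red), by distance in bp from the summit to the nearest tRNA gene; n is the number of regions, and the dashed line is the limit of 500 bp. Both shares are lower beyond 50 bp, a limit chosen after the values were seen. In both replicates are 57 of 129 nearer members, against 7 of 88 farther ones.

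The near members were richer in G and C than other regions. Over 100 bp on either side of the summit, the median GC content was 46.8% in the near members, against 38.8% in the distant ones and 35.3% in the other autosomal regions. The other autosomal regions whose GC content fell between the quartiles of the near members numbered 2803, and 2.14% of them (1.67 to 2.75) were in the IDR list and 8.70% (7.72 to 9.81) in both replicates, with a median signal of 17.7. The near members in the same range of GC content numbered 71, of which 13 (18.3%, 11.02 to 28.8) were in the IDR list and 37 (52.1%, 40.7 to 63.3) in both replicates, with a median of 33.7. This comparison was added after the values were seen.

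Members near a protein-coding gene's 5′ end had values like those of the others. A coding 5′ end lay within 1000 bp of 97 members (44.7%), close to the 46.6% of all autosomal regions. These 97 members had a median signal of 23.7, with 7 in the IDR list and 27 in both replicates. The other 120 members had a median of 22.8, with 14 in the IDR list and 37 in both replicates. Among the IDR members, 7 of 21 had such a 5′ end nearby. Genes for snoRNA, snRNA, miRNA or rRNA lay within 200 bp of 1 member, the region at the tRNA-Tyr gene C16D9.t4.

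Summits were found inside the tRNA gene and on both sides of it. Near members were chosen by their distance from the gene, which limits these positions, so their median and quartiles describe the members and do not show a centre. For the near members the summit lay at a median of 28 bp past the 5′ end of the gene (quartiles -12 and 69 bp). Of these summits, 62 were in the gene, 36 upstream and 31 downstream. The IDR members had a median position of 12 bp (quartiles -12 and 68 bp), with 7 upstream, 10 in the gene and 4 downstream. X-linked regions within 50 bp had a median of 18 bp. Over all 217 members, the distant ones included, the median was 35 bp.

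Median distances from the summit to the promoter elements and gene ends were of similar size. For 34 near members with a single tRNA gene and both box cores, the median distance of the summit was 37 bp from the 5′ end, 42 bp from the A box core, 48 bp from the centre of the gene, 52 bp from the 3′ end and 53.5 bp from the B box core. Most regions of the pooled list are 324 bp wide, and a gene has a median length of 72 bp, so that these distances are a small part of a region.

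**Figure D3:**
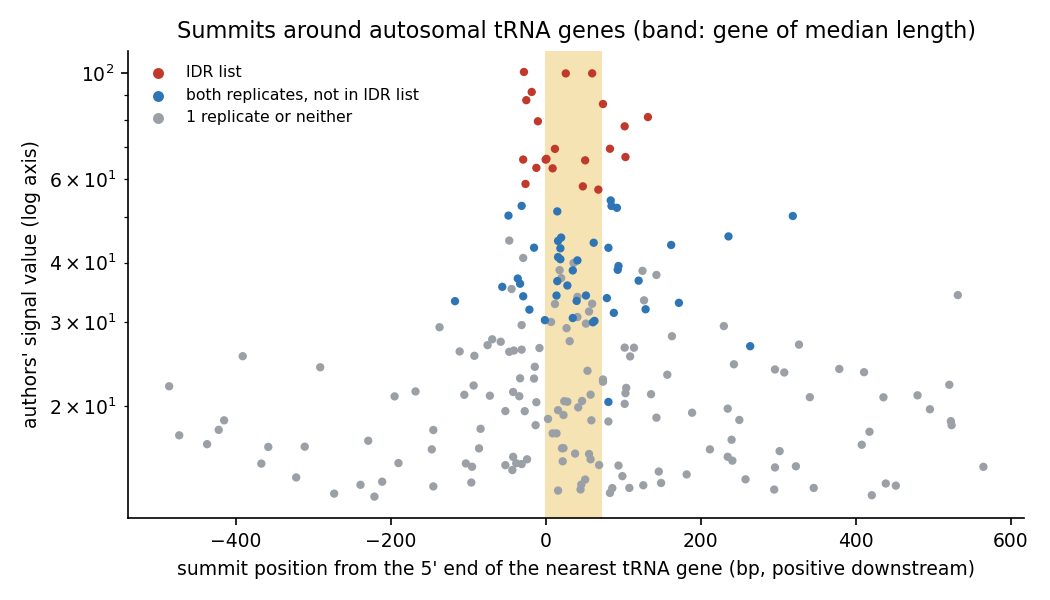
Signal value (log axis) of the 217 members against the position of the summit in bp from the 5′ end of the nearest tRNA gene, positive downstream; the band marks a gene of median length, and colours give the support. The members in the IDR list lie close to the band, with a median position of 12 bp, and most members far from it are weak and in 1 replicate or neither.

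The windows of 100 bp to either side of the summits of near members take in tRNA genes, and their A box and B box cores with them, so these shares follow from the choice of members. The B box core GTTCGANNC, on either strand, was in 86 of the 129 near members (66.7%), in 9 of the 88 distant ones (10.2%) and in 1.40% of the other autosomal regions. The A box core GCNNAGNNG was in 64 near members (49.6%), 17 distant ones (19.3%) and 12.1% of the other regions. The pair of motifs can overlap no base in these genes, since the A box core started at position 14 of the gene at the latest (median 10) and the B box core at position 48 at the earliest (median 53). A match shows the letters and no binding.

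Within the tRNA genes, a close summit was no more frequent where these letters were present. Only these exact letters were searched, so a gene counted as without a core need not lack the box itself. The B box core was found in 241 of the 336 autosomal tRNA genes (71.7%), against 0.261% of autosomal windows of the median gene length. A summit lay within 50 bp of 90 of these 241 genes (37.3%, 31.5 to 43.6), against 39 of the 95 genes without the core (41.1%, 31.7 to 51.1). The A box core was in 154 genes (45.8%), against 1.07% of windows. A summit lay within 50 bp of 56 of these 154 (36.4%), against 73 of the 182 others (40.1%). A run of TTTT within 25 bp past the 3′ end was present at 331 genes (98.5%), against 31.5% of windows of that length.

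AGGTCA, on either strand, was in few of the members' windows. It was in 15 of the 129 near members (11.6%, 7.17 to 18.3), 2 of the 88 distant members (2.27%, 0.625 to 7.91) and 5.03% of the other autosomal regions. Among the IDR members it was in 5 of 21 (23.8%, 10.6 to 45.1). The tRNA gene itself holds these letters at 26 of the 336 autosomal genes, and so it did at 7 of the 15 near members and 2 of the 5 IDR members with a match. These 2 were K04C2.t3 and T23F1.t1, as can be read in the sequence of K04C2.t3 above, whereas the other regions in the comparison hold no such gene. The 50 bases upstream of the gene, a window chosen after the values were seen, held it at 5 of the 336 genes (1.49%), against 1.12% of autosomal windows of this length. These genes were C15C6.t1, Y22D7AL.t4, F28F5.t1, F15B9.t1 and F28F8.t3. Each had a summit within 50 bp, with signal values of 69.4, 24.2, 15.8, 87.9 and 63.2 in this order. Over all 336 genes, 129 (38.4%) had such a summit. A link between the letters and the summits was not tested, and the genes that hold them upstream are few. The flanks of F15B9.t1 and F28F8.t3 shown above hold it as TGACCT.

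Counted by gene, a region of the pooled list, which includes background, was found at most autosomal tRNA genes. Fewer genes had one when only close or reproducible summits were counted. Of the 336 genes, 210 (62.5%, 57.2 to 67.5) had a pooled summit within 500 bp, against 29.2% of all autosomal windows of the median gene length. Within 50 bp it was 129 genes (38.4%, 33.4 to 43.7), against 5.17% of windows. A summit shared by both replicates lay within 500 bp of 68 genes (20.2%), against 1.45% of windows, and within 50 bp of 58 genes (17.3%), against 0.235%. An IDR summit lay within 500 bp of 23 genes (6.85%), against 0.21% of windows, and within 50 bp of 22 genes (6.55%, 4.36 to 9.71), against 0.0338%. The other 126 genes had no summit within 500 bp, and 81 had one only at 51 to 500 bp.

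The shares on X were close to the autosomal ones for any summit and higher for IDR summits. Within 50 bp of a summit lay 129 of 336 autosomal genes (38.4%), against 111 of 276 X-linked genes (40.2%, 34.6 to 46.1). An IDR summit lay within 50 bp of 6.55% of autosomal genes, against 11.2% (8.03 to 15.5) of X-linked ones, and these intervals overlap. The 180 autosomal tRNA pseudogenes in the RefSeq annotation were a class looked at after the values were seen. A summit lay within 50 bp of 22 of them (12.2%), against 5.17% of autosomal windows of the median tRNA gene length. Of these cases 3 were in both replicates and 1 was in the IDR list, against 0.235% and 0.0338% of windows. Of the 175 pseudogenes with no tRNA gene within 1000 bp, 20 (11.4%) had a summit within 50 bp.

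The 5 autosomes held similar shares of genes with a close summit. They held 66, 57, 64, 71 and 78 tRNA genes on I to V in order, of which 24, 18, 28, 32 and 27 had a summit within 50 bp. The lowest share was on chromosome II (31.6%, 21.0 to 44.5) and the highest on chromosome IV (45.1%, 34.1 to 56.6). IDR members numbered 3 on I, 6 on II, 4 on III, 3 on IV and 5 on V. Chromosome II had the highest IDR share among near members, 6 of 18 (33.3%, 16.3 to 56.3), with an interval that overlaps those of the other autosomes.

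Genes of nearly every amino acid were represented. A summit lay within 50 bp of at least 1 gene of each of the 20 standard amino acids, with 9 of 15 genes for aspartate, 9 of 17 for arginine and 4 of 6 for cysteine at the upper end. At the lower end were 1 of 11 genes for tyrosine, 2 of 12 for methionine and 5 of 21 for serine. With so few genes each, the interval for tyrosine (1.62% to 37.7%) still overlaps that for aspartate (35.8% to 80.2%). The single autosomal gene for selenocysteine, K11H12.t1, had a summit 127 bp away with a signal of 16.2, in neither replicate. Neither of the 2 genes of undetermined amino acid had a summit within 50 bp, and the region of DY3.t2, 367 bp away, had a signal of 15.1.

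IDR peaks were spread over 13 amino acids. Genes for isoleucine and lysine had 3 each, those for alanine, arginine, cysteine, leucine and serine 2 each, and those for aspartate, histidine, methionine, proline, tryptophan and valine 1 each. The proline gene, T23F1.t2, shared its peak with the lysine gene T23F1.t1. Glycine had the most autosomal genes, 35, of which 11 had a summit within 50 bp and 0 an IDR peak (interval up to 9.89%). Threonine had 10 of 20 genes with a close summit and 0 with an IDR peak.

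**Figure D4:**
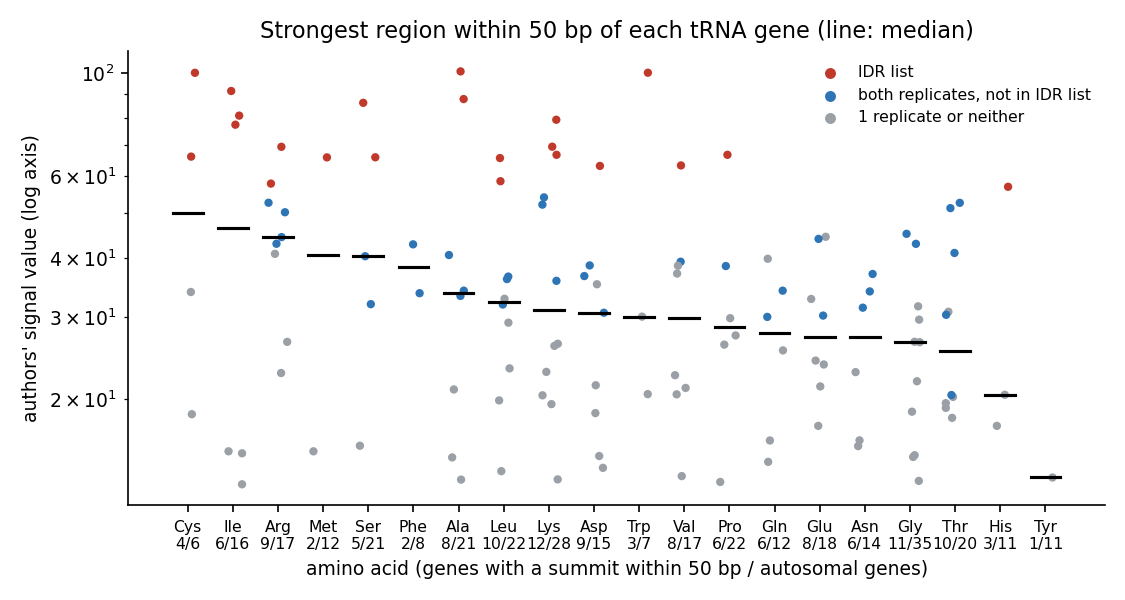
Signal value (log axis) of the strongest region within 50 bp of each autosomal tRNA gene, by amino acid in order of the median (black line); the numbers under each name are the genes with such a region and all autosomal genes of that amino acid. The order is led by cysteine with a median of 50.02 over 4 genes, and regions of high and low signal stand side by side within most amino acids.

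The strongest regions lay at genes of tRNA-Ala, tRNA-Trp and tRNA-Cys. The region at ZK622.t1 (chrII:5292142-5292465) had a pooled signal of 100.7, with 58.7 in replicate 1 and 43.2 in replicate 2, and its summit lay 28 bp upstream of the gene, between genes. The region at sup-5 on III, a tRNA-Trp gene known for mutations that suppress nonsense codons, had 100.05, with 62.0 in replicate 1, the highest of all members there, and 34.8 in replicate 2. The region at C37A2.t1, a tRNA-Cys gene on I, had 100.01, with 50.95 and 46.2. The summits at sup-5 and C37A2.t1 lay inside the gene, each in an intron of a protein-coding gene on the same strand. Signal scales differ between lists, so values are compared only within 1 list.

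The region at the tRNA-Ile gene T21B4.t1 came next, and other regions at tRNA-Ile and tRNA-Lys genes were among the 20 strongest. T21B4.t1 had a pooled signal of 91.4 (52.7 in replicate 1 and 39.0 in replicate 2), F57F5.t1 had 81.0 (38.6 and 49.2), and F33G12.t1 had 77.4 (33.8 and 41.7). F57F5.t1 is one of 17 autosomal genes with an intron of their own, of which 4 had a summit within 50 bp. Its sequence has no identical copy, whereas T21B4.t1 and F33G12.t1 have the same sequence. Among the tRNA-Lys genes, B0350.t1 had a pooled signal of 79.3, with the highest value of all members in replicate 2, 56.5, and a value in replicate 1, 23.9, near the median of the members in both replicates, 23.8. K04C2.t3 had 69.5 and T23F1.t1 had 66.7, and these genes share the sequence shown above for K04C2.t3.

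Regions at a further tRNA-Ala gene and at a tRNA-Ser gene ranked between T21B4.t1 and F57F5.t1, and the other strong regions covered serine, arginine, cysteine, methionine, leucine, valine and aspartate. F15B9.t1, with the gene sequence of ZK622.t1, had a pooled signal of 87.9 (53.9 in replicate 1 and 35.6 in replicate 2). The tRNA-Ser genes ZC455.t1 and K11H3.t2 had 86.2 and 65.9, with K11H3.t1 also within 500 bp of the second region. C15C6.t1 (tRNA-Arg) had 69.4, F32B4.t1 (tRNA-Cys) 66.1 and T15B12.t1 (tRNA-Met) 65.9. The last of these had 36.1 in replicate 1 and 21.3 in replicate 2, the lowest replicate 2 value among the IDR members and below the median of 22.5 for members in both replicates. C04A2.t1 and C38C6.t1, the tRNA-Leu genes shown above, had 65.7 and 58.6, and their summits lay 51 bp inside the first gene and 26 bp upstream of the second. C05G6.t1 (tRNA-Val) had 63.3, F28F8.t3 (tRNA-Asp) 63.2 and M57.t1 (tRNA-Arg) 57.9. W09G10.t1 (tRNA-His), with 56.98, was the weakest member in the IDR list.

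Below the IDR list, several members were supported by both replicates. The strongest was the region at M01E5.t1 (tRNA-Lys), with a pooled signal of 54.1, 26.2 in replicate 1 and 23.5 in replicate 2. The region next to W09G10.t2 (tRNA-Lys) and W09G10.t3, with 52.2, was the third strongest with more than 1 tRNA gene within 500 bp, after those at T23F1.t1 and K11H3.t2. W02G9.t2, the strongest of tRNA-Thr, had 52.6 (23.97 in replicate 1 and 28.2 in replicate 2). The IDR list and these members meet at similar values, with 56.98 as the lowest member inside it and 54.1 as the highest outside.

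The strongest regions of the remaining amino acids were weaker and some lay away from the gene. F10C1.t1 (tRNA-Gly) had 45.4 at a distance of 166 bp, and F22B7.t3 (tRNA-Phe) had 43.6 at 90 bp, both in both replicates. R04F11.t1 (tRNA-Asn) had 37.1 and B0212.t1, the strongest region nearest to a tRNA-Pro gene, had 38.5, also in both replicates. M01E10.t2 (tRNA-Glu) had 44.5 and Y4C6B.t1 (tRNA-Gln) 39.9, in replicate 1 only. C16D9.t4 (tRNA-Tyr) had 24.5 at 160 bp, in replicate 1 only.

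Genes of one sequence differed widely in their regions. An identical nuclear copy, with up to 2 bases at each end ignored, was present for 254 of the 336 genes. Of the 24 sequences carried by 4 or more autosomal genes, which take in 197 genes, 23 had genes both with and without a summit within 50 bp. How the authors placed reads that match several copies is not known from the labels, and its part in these values was not tested. Genes are shorter than the sequenced fragments, and whether the reads themselves reached the flanks that differ between copies was not examined.

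The tRNA-Ala sequence of ZK622.t1 is found in 9 autosomal genes. The signal within 50 bp was 100.7 at ZK622.t1, 87.9 at F15B9.t1, 34.1 at Y65A5A.t2, 33.3 at Y65A5A.t1, 21.0 at Y7A9D.t2 and 14.99 at C28A5.t3. The first 4 of these regions were in both replicates, that at Y7A9D.t2 was in replicate 1 only and that at C28A5.t3 in neither. M03A1.t1 and C52E12.t3 had no summit within 50 bp, and F49C5.t2 had none within 500 bp. The flanks printed above come from 5 of these genes.

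The tRNA-Trp sequence of sup-5 showed the same kind of range. Besides sup-5 with 100.05, the signal was 30.02 at sup-24 and 20.5 at rtw-6, both with a region in replicate 1 only. Neither sup-29 nor Y4C6B.t2 nor Y95B8A.t1, which have the same sequence, had a summit within 500 bp. Of the 4 copies on X, sup-7 had 45.7, in both replicates, sup-28 had 20.3 at more than 50 bp, in neither replicate, and sup-21 and sup-33 had no summit within 500 bp. The remaining classical suppressor and rtw names that were looked for were not matched to an autosomal gene. Genes for tRNA-Ile with the sequence of T21B4.t1 numbered 10 on the autosomes, of which 5 had a summit within 50 bp, with values from 13.1 to 91.4 and a median of 15.4. The tRNA-Glu genes rte-2 and rte-4, named after their values were seen, also share a sequence and had 30.2 and 32.8.

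Genes with copies had a close summit more often than genes without. A summit lay within 50 bp of 53 of the 111 genes whose sequence occurs 16 or more times in the nuclear genome (47.7%, 38.7 to 56.96), 37 of the 92 with 6 to 15 copies (40.2%, 30.8 to 50.4) and 23 of the 51 with 2 to 5 copies (45.1%, 32.3 to 58.6), against 16 of the 82 with a single copy (19.5%, 12.4 to 29.4). The interval for single genes lies below the other 3, but it covers counting error only, and copies of one sequence are not independent units. How reads that match several copies were placed is not known, and its part in this difference was not tested. For IDR summits the counts were 7, 8 and 3 genes in these classes, against 4 single genes (4.88%, 1.91 to 11.9), with overlapping intervals. The signal of the strongest close region did not follow this order, with medians of 30.2, 31.9 and 37.1, against 33.1 at single genes. C15C6.t1, F57F5.t1, C05G6.t1 and C38C6.t1 were the single genes with an IDR peak.

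Close summits were about as frequent at tRNA genes inside larger genes as between genes. Of the 188 tRNA genes in an intron of a protein-coding gene, 73 (38.8%, 32.2 to 46.0) had a summit within 50 bp, against 53 of the 139 intergenic ones (38.1%, 30.5 to 46.4). An IDR summit lay at 16 of the intronic genes (8.51%, 5.31 to 13.4), against 6 of the intergenic ones (4.32%, 1.99 to 9.10), and these intervals overlap. Introns of genes on the same strand held 10 of the IDR genes, and introns of genes on the opposite strand held 6. Genes with another tRNA gene within 1000 bp had a close summit in 31 of 101 cases (30.7%, 22.5 to 40.3), against 98 of 235 genes (41.7%, 35.6 to 48.1) without such a neighbour.

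Among the members found in both replicates, 64 of 217, the replicate signals were correlated. The correlation was weak when the IDR members, which the authors chose for their agreement, were left out. Over the 64 members in both replicates, Pearson's r between replicate 1 and replicate 2 signal was 0.637 and Spearman's rho 0.665, against 0.773 and 0.496 over the 1064 other autosomal regions in both. Without the IDR members the values were 0.281 and 0.321 over 43 members. The IDR members are also the strongest ones, and leaving out the top of a range can by itself lower a correlation. What each contributes was not tested, and the 1064 other regions were not reduced in this way. A second region near ZK622.t1 takes the same replicate 2 value, 43.2, as the first, so that these points are not all separate. These correlations are across regions that share libraries, control and sequence, and they are given as a description. Replicate 1 gave a region to 138 members and replicate 2 to 87, from lists of 14746 and 4556 regions, whose read depth is unknown. A replicate q-value of 0.05 or less in both replicates was given to 15 members (6.91%), against 0.370% of the other autosomal regions.

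**Figure D5:**
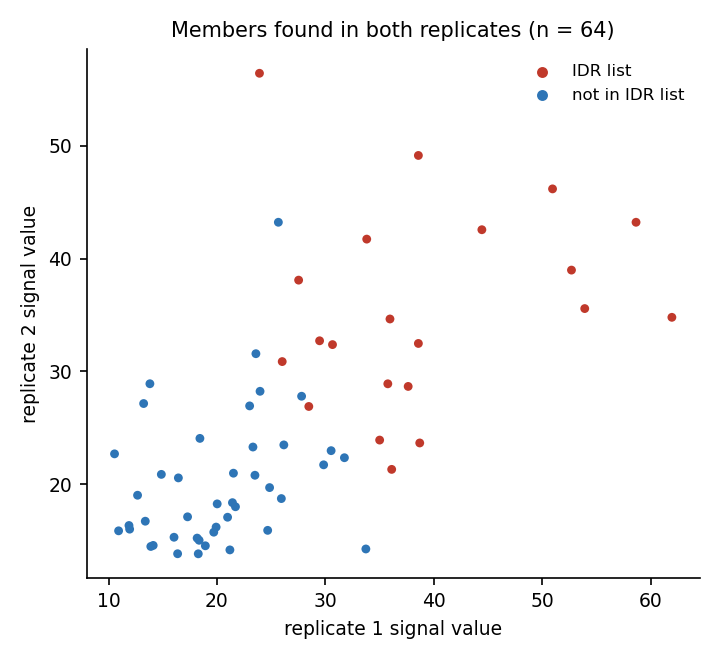
Replicate 1 against replicate 2 signal value of the 64 members found in both replicates; each point is a region, and red points are in the IDR list. Most IDR members take the upper part of both axes. The IDR points at 23.9 and 56.5 (B0350.t1) and at 36.1 and 21.3 (T15B12.t1) are low on 1 axis, and the point outside the IDR list at 25.7 and 43.2 is a second region near ZK622.t1, which has the same replicate 2 value as the first.

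Genes on a list for the machinery that makes and processes tRNAs had regions at their 5′ ends at shares near those of all protein-coding genes. The 41 listed genes were mainly those of RNA polymerase III, its factors and tRNA maturation, with others such as sptf-1 and tiar-1. In the annotation 32 were matched. Of these matched genes, 14 (43.8%) had a pooled summit within 500 bp of a 5′ end, against 36.9% of 19973 protein-coding genes. In both replicates were 2 of them (6.25%), against 3.67%, and in the IDR list 0, against 0.591%. The 2 genes were rpac-19, which encodes a subunit shared by RNA polymerases I and III (signal 33.998), and rpb-10, which encodes a subunit common to RNA polymerases (28.4). The gene of the TFIIIB subunit, brf-1, and that of the TATA-binding protein, tbp-1, had no summit within 500 bp.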

How the data were processed

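ChIP-seq was done on 2 libraries labelled as biological replicates of 1 group. Regions were called by the authors on each library and on the pair together, relative to a control and as input for IDR, per the deposited text records. The deposited lists give a signal value per region and, in the replicate lists, the q-value as −log10. The sources used here do not give the aligner, the caller, the IDR cutoff or read totals, so depth is unknown. Every column of values used was matched to a sample or to the pool, which left 0 unmatched. The lists on build ce11 were used. Genes came from Ensembl release 115 (WBcel235), and names, amino acids and pseudogenes of tRNA genes from RefSeq.

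Summits were assigned by distance with Python 3.11.15, numpy 2.4.6 and pandas 2.3.3, tested on simulated positions, and Wilson intervals were computed at 95%. A pooled region counted as in a replicate when its summit lay inside a region of that list, and as in the IDR list when the summits were equal. Background windows had the median length of an autosomal tRNA gene, 72 bp, at every autosomal position, and the base motifs were searched on both strands. Nothing was tested, since the design has 1 group. Alternatives were other distances, overlap rules, q-values and single replicates.

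Named genes are those within 500 bp of the 20 strongest members, the strongest of each amino acid, classical suppressor names, the 3 strongest members with several genes, the strongest member outside the IDR list and those at the 500 bp limit. Members and lists were chosen with earlier results of these data known.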

Additional observations from a re-analysis of the deposited data

How the results depend on the processing

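Counting summits inside the tRNA gene left 62 regions, with a median signal of 31.2 and an IDR share of 16.1%, and within 200 bp the median signal was 26.5, because the weaker regions lie farther out. The share of members in both replicates was 6.91% with replicate regions of a q-value of 0.05 or less, and 39.8% when weaker pooled regions, below the median signal of the list, were left out. Genes with a region numbered 129 within 50 bp, a distance chosen after seeing the data, and from 91 to 162 with 1 replicate's list alone. Leaving out replicate 1 gave the lowest count, and the list of replicate 2 used there is the shorter. With 1 replicate's list alone the median summit position was 39 to 46 bp. The other alternatives run for these results, 14 of 22, and all 27 for single chromosomes and amino acids stayed within the set limits. No paired analysis was possible because there is only 1 group. The ce10 lists were not run. The unknown depth limits what the absence of a region at a gene shows.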
